A study of Vitis x labruscana x Vitis vinifera with 36 samples.

Results

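Invertases and sugar transporters of the grape berry are described here through 10 genes, over 12 groups of berry flesh and berry skin. The set holds the vacuolar invertases GIN1 (VIT_16s0022g00670) and GIN2 (VIT_02s0154g00090), a cell wall invertase (VIT_09s0002g02320), 5 hexose transporters, the sucrose transporter SUC11 (VIT_18s0001g08210) and SWEET10 (VIT_17s0000g00830). The hexose transporters are VIT_00s0181g00010, VIT_18s0001g05570, VIT_11s0149g00050, VIT_18s0122g00850 and VIT_05s0020g03140, and they are called by these identifiers below. The members were taken by identifier, 10 of the 30661 features in the deposited count table, and all 10 were found there. Their product names come from the list by which the set was drawn up, since the table pairs identifiers with no names.

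The berries were those of 'Shine Muscat', a table grape bred from Vitis labruscana and Vitis vinifera. Seeded berries, which the series title calls not treated, were compared with seedless berries, which it calls treated; the sources used here give neither the agent nor its dose. Skin and flesh were sampled apart, each group at stage 1, 3 or 4 and each made of 3 libraries, 36 in all; the calendar of the stages is not given, and stage 2 is not analysed here. RNA was sequenced with Lasy-seq v1.1, a method that counts transcripts mainly from their 3′ ends.

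Grape leaves export sucrose through the phloem, and the berry stores mostly glucose and fructose in its vacuoles. Invertases split sucrose into these hexoses, the cell wall enzymes outside the cell and the vacuolar enzymes inside the vacuole. Hexose transporters carry monosaccharides across the plasma membrane or the vacuolar membrane, sucrose transporters of the SUC family move sucrose together with protons, and SWEET proteins let sugars pass down their gradient.

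Library totals ran from 608901 to 7343203 counts. The seeded groups of stage 1 were the shallowest, with 608901 to 1252664 counts in flesh and 1116703 to 2379176 in skin. Levels are given in CPM, the usual count scale that sets every library to the same total, with TMM factors over all 36 libraries, and the 3 values of a group are always replicates 1, 2 and 3. No level is compared between genes. Of the 10 members, 9 passed the filter on low counts in every fit; VIT_05s0020g03140 did not and has values but no test. In skin the cell wall invertase passed only through seeded libraries of stages 1 and 3, and VIT_00s0181g00010 passed in each tissue only through the 3 seeded libraries of stage 1. A member that passes through the group where it is high must differ from the others, so these are described there without a test, and counts and medians are given over the other 8 members in flesh and the other 7 in skin. The labels do not say whether the 3 libraries of a group came from separate vines or berries, so each p-value measures only the spread between these libraries, which may be technical. A member is called where the edgeR quasi-likelihood test gave an adjusted p under 0.05 over all genes tested, and log2 fold changes are followed by their standard error (SE).

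GIN1, a soluble acid invertase of the vacuole, had its highest level in seeded skin of stage 1, at 566, 398 and 414 CPM (mean 459 ± 93.1, SD, n = 3). Seedless skin of stage 1 gave 91, 142 and 80.2 CPM (104 ± 33). Every seeded library lay above every seedless one, and in this comparison GIN1 was 4.49-fold lower in seedless skin (log2 fold change -2.17 ± 0.28 SE, edgeR adjusted p = 9.3e-05). In flesh of the same stage, seeded berries gave 109, 29.7 and 53.8 CPM and seedless berries 14.6, 19.7 and 6.57 CPM. The seeded flesh libraries were widely spread but did not overlap the seedless ones, and GIN1 was 4.75-fold lower in seedless flesh (-2.25 ± 0.44, edgeR adjusted p = 0.0011). These are bulk samples, in which fewer cells of a type and less RNA per cell cannot be told apart.

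At stage 3, GIN1 in seeded skin was at 69.5, 62.2 and 47.6 CPM and in seedless skin at 33.2, 49.8 and 22.8 CPM. The 2 groups overlapped through replicate 2 of seedless skin, and the difference did not pass (-0.77 ± 0.30, edgeR adjusted p = 0.13); without that library it did (-1.11, edgeR adjusted p = 0.031). In flesh of stage 3 the levels were 7.48, 3.92 and 8.2 CPM in seeded and 5.8, 8.35 and 2.43 CPM in seedless berries, again overlapping. By stage 4, skin held means of 11.7 ± 2.83 CPM in seeded and 11.7 ± 2.85 CPM in seedless berries, and flesh 2.3 ± 1.09 and 2.68 ± 0.77 CPM. The 95% interval of the seedless minus seeded difference at stage 4 ran from -0.78 to 0.82 on the log2 scale in skin and from -1.14 to 1.38 in flesh. From stage 1 to stage 4 the mean of GIN1 dropped 39.2-fold in seeded skin and 8.89-fold in seedless skin, and 27.9-fold and 5.07-fold in the corresponding flesh. Without replicate 1 of seeded flesh of stage 1, the drop in seeded flesh was 18.1-fold, and without replicate 3 of stage 4 it was 38.3-fold. The stage 4 level in seeded flesh rested on 28 reads in all, 5 to 16 per library.

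GIN2, the other vacuolar invertase, was likewise highest in seeded skin of stage 1, at 83.4, 70.7 and 71.8 CPM, against 32.2, 31.1 and 32.5 CPM in seedless skin. At stage 3 seeded skin gave 38.3, 42.8 and 51.5 CPM and seedless skin 19.4, 15.8 and 11.4 CPM. At both stages the seeded and seedless libraries of skin stood apart. GIN2 was 2.39-fold lower in seedless skin of stage 1 (-1.26 ± 0.19, edgeR adjusted p = 6.2e-06) and 2.86-fold lower in that of stage 3 (-1.51 ± 0.20, edgeR adjusted p = 7.3e-07). At stage 4 the means were 12.6 ± 4.53 CPM in seeded and 13.7 ± 0.883 CPM in seedless skin, with overlap.

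Flesh held less GIN2. Seeded flesh gave 17, 6.98 and 14.3 CPM at stage 1 and 8.77, 6.86 and 13.2 CPM at stage 3; seedless flesh gave 2.86, 8.04 and 1.92 CPM and then 1.35, 4.17 and 2.14 CPM. The stage 1 levels rested on 33 reads in all in seeded flesh, 4 to 17 per library, and on 48 reads in seedless flesh. The groups overlapped at stage 1 through replicate 2 of both and stood apart at stage 3. GIN2 was 3.06-fold lower in seedless flesh of stage 1 (-1.61 ± 0.51, edgeR adjusted p = 0.023) and 3.6-fold lower at stage 3 (-1.85 ± 0.43, edgeR adjusted p = 0.003). The stage 1 call was lost when seedless flesh replicate 1 or 3, or seeded flesh replicate 1 or 3, was left out, with edgeR adjusted p between 0.081 and 0.11 and estimates between -1.51 and -1.26. At stage 4 the flesh means were 5.97 ± 2.17 and 5.02 ± 0.542 CPM, with overlap.

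**Figure D1:**
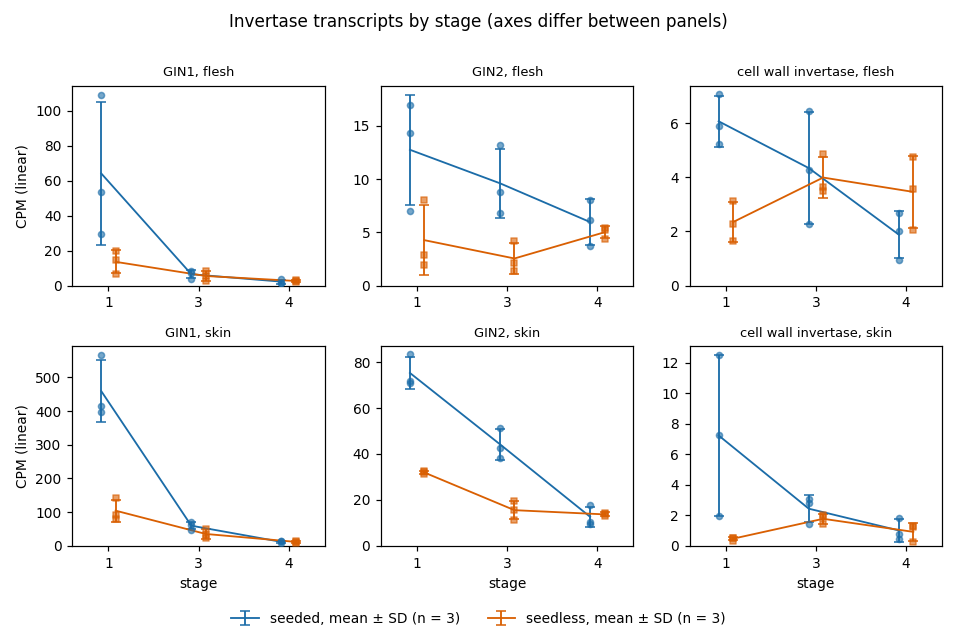
Levels of GIN1, GIN2 and the cell wall invertase in every library, in CPM on linear axes that start at 0, by stage for seeded and seedless flesh and skin; points are libraries and bars are mean ± SD (n = 3). For GIN1 and GIN2 the seeded skin libraries of stage 1 lie above all others, and their seeded and seedless means lie close together at stage 4.

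The cell wall invertase, an enzyme known to cleave sucrose outside the cell, was sparsely counted, with 372 reads over all 36 libraries. Seeded skin of stage 1 gave 7.25, 1.96 and 12.5 CPM, from 16, 2 and 23 reads, and seedless skin 0.516, 0.345 and 0.545 CPM, from 2, 1 and 2 reads. The seeded libraries were uneven, yet each lay above all seedless ones, and the fitted level was 15.2-fold lower in seedless skin. In flesh of stage 1 the levels were 7.08, 5.24 and 5.88 CPM in seeded and 2.29, 3.11 and 1.64 CPM in seedless berries, without overlap, and the difference did not pass (-1.37 ± 0.61, edgeR adjusted p = 0.12). These levels rested on 15 reads in all in seeded and 26 in seedless flesh. In flesh the mean was 4.34 ± 2.08 CPM in seeded and 3.99 ± 0.754 CPM in seedless berries at stage 3, and 1.88 ± 0.876 and 3.46 ± 1.34 CPM at stage 4. Skin means at these stages lay between 0.915 and 2.44 CPM.

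Among the hexose transporters, VIT_18s0122g00850 and VIT_18s0001g05570 had an unlike course in the seeded and seedless berries. In seeded flesh VIT_18s0122g00850 was at 513, 640 and 685 CPM at stage 1, at 991, 763 and 970 CPM at stage 3 and at 503, 355 and 362 CPM at stage 4. In seedless flesh it was at 505, 564 and 516 CPM, then 370, 453 and 453 CPM, then 417, 373 and 333 CPM. Its stage 3 libraries were the highest of seeded flesh and stood above all seedless flesh libraries, while at stages 1 and 4 the seeded and seedless libraries overlapped. The seedless level was 2.13-fold lower at stage 3 (-1.09 ± 0.13, edgeR adjusted p = 2.1e-07), and the 95% interval of the difference at stage 4 ran from -0.37 to 0.13.

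VIT_18s0001g05570 gave 225, 246 and 266 CPM in seeded flesh of stage 1, 352, 278 and 326 CPM at stage 3 and 117, 79.1 and 95.3 CPM at stage 4. Seedless flesh gave 182, 216 and 192 CPM, then 140, 185 and 146 CPM, then 108, 108 and 89.6 CPM. The stage 3 libraries of the 2 kinds of flesh stood far apart, and the seedless level was 2.02-fold lower there (-1.02 ± 0.13, edgeR adjusted p = 4.5e-07). At stage 1 the seeded libraries also lay above the seedless ones, by an amount that did not pass (-0.34 ± 0.14, edgeR adjusted p = 0.088). At stage 4 the libraries overlapped, and the 95% interval ran from -0.20 to 0.33.

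The same 2 transporters were lower in seedless skin at stage 3, with estimates nearer to 0 than in flesh; a test of the difference between tissues, given below, passed for neither with all libraries and the filter on low counts. At that stage VIT_18s0001g05570 was at 313, 298 and 316 CPM in seeded and at 177, 236 and 190 CPM in seedless skin, and VIT_18s0122g00850 was at 508, 467 and 597 CPM against 325, 393 and 421 CPM. Neither gene's groups overlapped. The seedless level was 1.54-fold lower for the first (-0.62 ± 0.13, edgeR adjusted p = 0.0015) and 1.38-fold lower for the second (-0.47 ± 0.11, edgeR adjusted p = 0.005). The call for VIT_18s0122g00850 was lost without seedless skin replicate 1 (edgeR adjusted p = 0.051) or seeded skin replicate 3 (edgeR adjusted p = 0.06) of stage 3. At stage 1 the skin differences had 95% intervals from -0.25 to 0.29 for VIT_18s0001g05570 and from -0.19 to 0.27 for VIT_18s0122g00850.

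From stage 1 to stage 3, in seeded berries, every later library lay above every earlier one for both transporters and in both tissues. The ratio of the means was 1.3 in flesh and 1.51 in skin for VIT_18s0001g05570, and 1.48 and 1.25 for VIT_18s0122g00850. In seedless berries the same ratios were 0.797 and 0.957, and 0.807 and 0.876. The change of the seedless minus seeded difference from stage 1 to stage 3, a test chosen after these values were seen, was -0.68 ± 0.19 in flesh for VIT_18s0001g05570 (edgeR adjusted p = 0.019) and -0.86 ± 0.18 for VIT_18s0122g00850 (edgeR adjusted p = 0.0022). These were the 2 of 8 members called in that comparison, both lower, beside 4.36% of all genes tested called lower. The VIT_18s0001g05570 call was lost on leaving out replicate 2 of seedless or replicate 1 of seeded flesh of stage 1, or replicate 1 of either flesh of stage 3, with edgeR adjusted p between 0.051 and 0.056.

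From stage 3 to stage 4 in flesh the difference shrank, by 1.08 ± 0.19 for VIT_18s0001g05570 (edgeR adjusted p = 2.5e-04), by 0.97 ± 0.18 for VIT_18s0122g00850 (edgeR adjusted p = 0.0011) and by 1.21 ± 0.35 for VIT_11s0149g00050 (edgeR adjusted p = 0.038). These 3 of 8 members were called higher, meaning that the seedless level moved up relative to the seeded one, beside 2.31% of all genes. The call for VIT_11s0149g00050 was lost on leaving out any of 9 libraries of seeded or seedless flesh, with edgeR adjusted p up to 0.13, and after thinning to equal depth, with 0.66.

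In skin the change from stage 1 to stage 3 was -0.64 ± 0.19 for VIT_18s0001g05570 (edgeR adjusted p = 0.033), -0.51 ± 0.16 for VIT_18s0122g00850 (edgeR adjusted p = 0.0476) and -0.77 ± 0.24 for VIT_11s0149g00050 (edgeR adjusted p = 0.037). These 3 of 7 members were called lower, beside 4.42% of all genes. The fitted change of the cell wall invertase was 3.49 ± 1.0, given without a test, where 3.43% of all genes were called higher. None of the 3 calls held under every alternative, and none was called after thinning all libraries to equal depth. With the cell wall invertase included, the number of members called was 0 without replicate 3 of seedless or of seeded skin of stage 1. It was 1 without replicate 2 of seedless skin of stage 1 or replicate 1 of seeded skin of stage 3, and 2 without replicate 1 of seedless skin of stage 1, any library of seedless skin of stage 3 or replicate 2 or 3 of seeded skin of stage 3. From stage 3 to stage 4 in skin, GIN2 moved by 1.56 ± 0.30 (edgeR adjusted p = 4.3e-04), VIT_18s0001g05570 by 0.91 ± 0.19 (edgeR adjusted p = 0.0017) and VIT_18s0122g00850 by 0.60 ± 0.16 (edgeR adjusted p = 0.016), 3 of 7 members called higher beside 4.16% of all genes. The GIN2 call was lost at equal depth (0.37), as was that of VIT_18s0001g05570 (0.055). The VIT_18s0122g00850 call was lost without seedless skin replicate 1 or seeded skin replicate 3 of stage 3, or without seedless skin replicate 1 or seeded skin replicate 2 or 3 of stage 4, with edgeR adjusted p between 0.052 and 0.069.

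**Figure D2:**
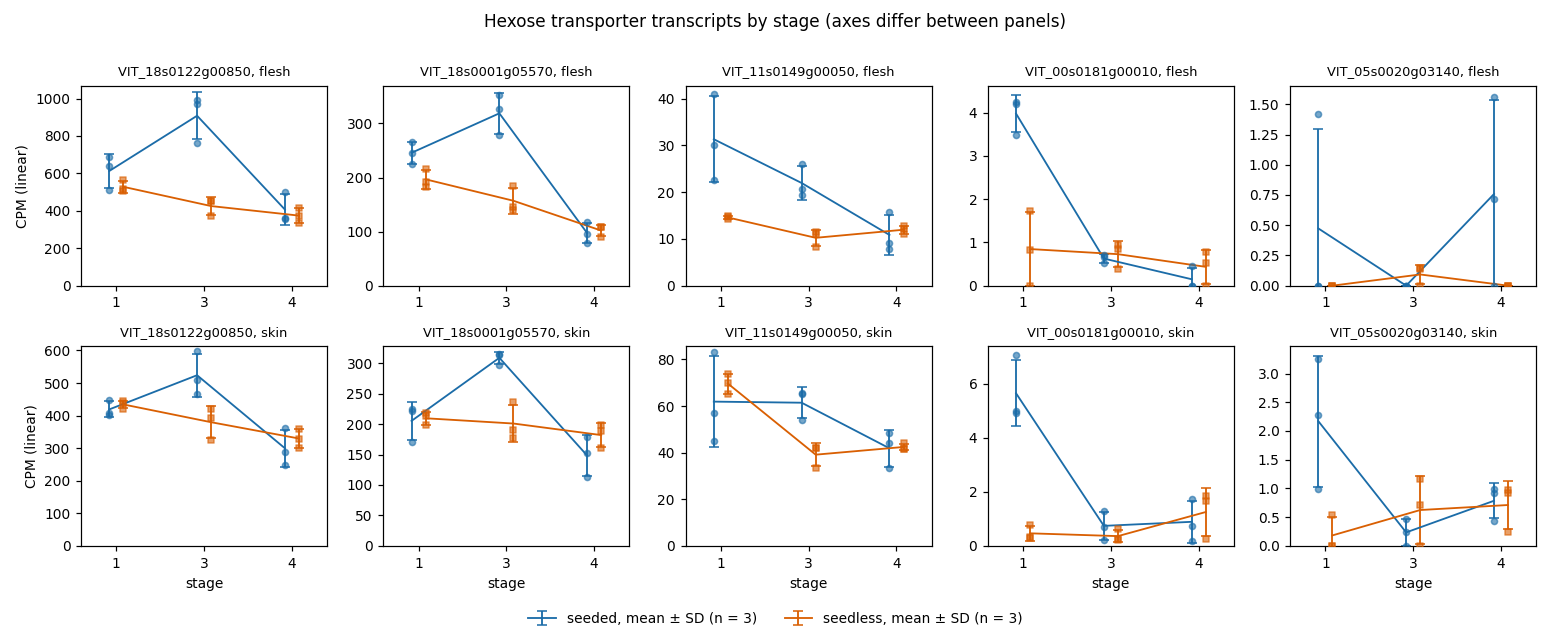
Levels of the 5 hexose transporters in every library, in CPM on linear axes that start at 0, by stage for seeded and seedless flesh and skin; points are libraries and bars are mean ± SD (n = 3). VIT_18s0122g00850 and VIT_18s0001g05570 peak at stage 3 in seeded flesh and seeded skin, with means of 908 and 319 CPM in flesh, and not in the seedless berries.

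VIT_11s0149g00050 was a transporter of higher level in skin. In flesh of stage 1 it gave 41.1, 22.7 and 30.2 CPM in seeded and 14.6, 15 and 14.2 CPM in seedless berries, and at stage 3 it gave 20.6, 19.3 and 26 CPM against 8.32, 11.4 and 11 CPM. The groups stood apart at both stages. The seedless level was 2.17-fold lower at stage 1 (-1.12 ± 0.28, edgeR adjusted p = 0.0044) and 2.11-fold lower at stage 3 (-1.08 ± 0.24, edgeR adjusted p = 0.0019). Without seeded flesh replicate 1 of stage 1 the first call was lost (edgeR adjusted p = 0.053), and after thinning to equal depth the second was (edgeR adjusted p = 0.54).

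In skin of stage 1, VIT_11s0149g00050 was at 83.4, 45.2 and 57.1 CPM in seeded and at 65.3, 69.8 and 73.9 CPM in seedless berries, which overlapped, with a 95% interval of the difference from -0.22 to 0.45. At stage 3 it was at 65.5, 65 and 53.8 CPM in seeded and at 41.9, 42.1 and 33.4 CPM in seedless skin. Those groups stood apart, with a 1.57-fold lower seedless level (-0.65 ± 0.16, edgeR adjusted p = 0.0061), a call lost without seedless skin replicate 3 of that stage (0.063) and after thinning (0.27). At stage 4 the means were 41.8 ± 7.81 and 42.4 ± 1.44 CPM in skin and 10.9 ± 4.26 and 12 ± 0.769 CPM in flesh, in seeded and seedless berries respectively.

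The remaining hexose transporters were barely detected. VIT_00s0181g00010 had 122 reads in all and none in 4 libraries. In seeded skin of stage 1 it gave 4.98, 4.91 and 7.07 CPM, from 11, 5 and 13 reads, against 0.774, 0.345 and 0.273 CPM, from 3, 1 and 1 reads, in seedless skin. The groups stood apart, with a fitted level 11.4-fold lower in seedless skin. Its 4.25, 3.49 and 4.2 CPM in seeded flesh of stage 1, from 10 reads in all, lay above 1.72, 0 and 0.821 CPM in seedless flesh, from 9 reads. Means in the other 8 groups lay between 0.148 and 1.25 CPM.

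VIT_05s0020g03140, the untested member, had 58 reads in all and none in 17 libraries. Its highest group was again seeded skin of stage 1, with 2.27, 0.982 and 3.26 CPM from 12 reads, against 2 reads in seedless skin of that stage. No read fell in seeded flesh of stage 3 or in seedless flesh of stages 1 and 4; a count of 0 allows up to 0.308, 0.273 and 0.181 CPM in these groups, taking 3 reads over the group's summed depth as the limit and covering counting error only. Seeded flesh, seeded skin and seedless skin of stage 4 had 10 reads each, and seedless skin of stage 3 had 8.

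SWEET10, a member of the family that lets sugars pass down their gradient, was highest in flesh of stage 1, at 365, 267 and 407 CPM in seeded and 188, 249 and 254 CPM in seedless berries. These groups did not overlap, but the difference did not pass (-0.61 ± 0.40, edgeR adjusted p = 0.34, 95% interval -1.40 to 0.17). At stage 3 the flesh levels were 138, 122 and 145 CPM in seeded and 59.4, 84.8 and 52.9 CPM in seedless berries, also without overlap and without passing (-1.04 ± 0.40, edgeR adjusted p = 0.13). Fitted on the 6 libraries of each comparison alone, both differences passed, at -0.64 (edgeR adjusted p = 0.0026) and -1.03 (edgeR adjusted p = 1.9e-04). At stage 4 seeded flesh gave 37.4, 9.76 and 7.35 CPM and seedless flesh 39.7, 29.9 and 20.8 CPM. Replicate 1 of seeded flesh stood above its group there, and without it SWEET10 was called higher in seedless flesh (1.82, edgeR adjusted p = 0.0028), which it was not with all libraries (0.69 ± 0.48, edgeR adjusted p = 0.57).

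In skin of stage 1, SWEET10 was at 137, 99.2 and 94 CPM in seeded and at 30.7, 21.1 and 12 CPM in seedless berries. The groups stood far apart, and the gene was 5.26-fold lower in seedless skin (-2.39 ± 0.41, edgeR adjusted p = 7.7e-04). At stage 3 skin gave 12.8, 6.75 and 25.4 CPM in seeded and 4.26, 3.26 and 3.66 CPM in seedless berries, a 3.96-fold lower seedless level (-1.99 ± 0.53, edgeR adjusted p = 0.028). That call was lost without any of the 3 seedless skin libraries, or without replicate 1 or 3 of seeded skin, of stage 3, with edgeR adjusted p between 0.054 and 0.1. At stage 4 the skin means were 3.71 ± 1.37 and 3.34 ± 2.27 CPM. Between stages 1 and 4 the mean dropped 19.1-fold in seeded and 7.64-fold in seedless flesh, and 29.6-fold and 6.38-fold in the corresponding skin. Without replicate 1 of the stage 4 group the drop was 40.5-fold in seeded flesh and 10.4-fold in seedless skin.

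SUC11, a sucrose transporter, had its lowest means at stage 1 in seeded and seedless berries of both tissues, with overlap between the libraries of stages 1 and 3. Its seedless minus seeded difference passed the test at no stage in either tissue. In seeded flesh it was at 9.91, 26.2 and 26 CPM at stage 1, 25.3, 26.8 and 24.2 CPM at stage 3 and 55.7, 34.3 and 34.5 CPM at stage 4. In seedless flesh it was at 26.6, 25.9 and 21.6 CPM, then 23.6, 35.9 and 29.1 CPM, then 32.2, 31.7 and 30.4 CPM. The stage 4 seeded libraries were all above the stage 4 seedless ones, by an amount that did not pass (seedless minus seeded -0.41 ± 0.19, edgeR adjusted p = 0.31).

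In skin SUC11 went from 6.34, 10.8 and 11.4 CPM at stage 1 through 13.7, 10.5 and 17.4 CPM at stage 3 to 27.4, 24.7 and 20.8 CPM at stage 4 in seeded berries. Seedless skin gave 14.7, 10.4 and 10.4 CPM, then 10.4, 19.8 and 10.4 CPM, then 14.4, 17.6 and 16.2 CPM. At stage 4 the seeded libraries again lay above the seedless ones without passing (-0.59 ± 0.25, edgeR adjusted p = 0.21). The ratio of the stage 4 to the stage 1 mean was 2.55 in seeded and 1.36 in seedless skin.

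**Figure D3:**
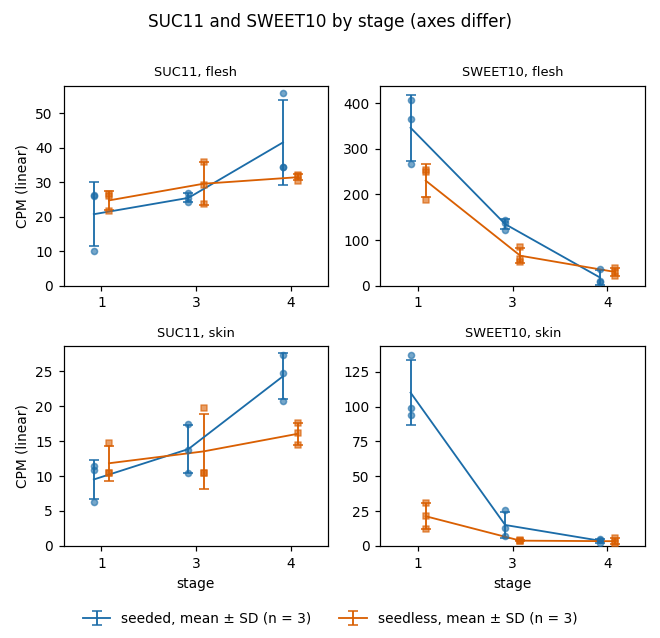
Levels of SUC11 and SWEET10 in every library, in CPM on linear axes that start at 0, by stage for seeded and seedless flesh and skin; points are libraries and bars are mean ± SD (n = 3). SWEET10 declines from stage 1 to stage 4 in all 4 series, from a mean of 347 to 18.2 CPM in seeded flesh, while the highest mean of SUC11, 41.5 CPM, is in seeded flesh of stage 4.

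Counted over the set, the seedless minus seeded comparison gave lower calls at stages 1 and 3 and none at stage 4. In flesh of stage 1, 3 of the 8 members were called lower (GIN1, GIN2 and VIT_11s0149g00050), where 8.35% of the 13639 genes tested were. Flesh of stage 3 had 4 of 8 called lower (GIN2, VIT_18s0001g05570, VIT_11s0149g00050 and VIT_18s0122g00850), beside 5.56% of all genes. In flesh of stage 4, edgeR called 0 of 8, beside 3.7% of all genes called in either direction; 1 member had an unadjusted p under 0.05, and DESeq2 called 0.

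In skin of stage 1, 3 of the 7 members were called lower (GIN1, GIN2 and SWEET10), where 9.87% of the 14193 genes tested were. In skin of stage 3, 5 of 7 were called lower (GIN2, VIT_18s0001g05570, VIT_11s0149g00050, VIT_18s0122g00850 and SWEET10), beside 5.47% of all genes. In skin of stage 4, edgeR called 0 of 7, beside 3.48% of all genes; 2 members had an unadjusted p under 0.05, and DESeq2 called 0. The median log2 fold change of the 8 members was -0.87, -1.03 and 0.09 at stages 1, 3 and 4 in flesh, where over all genes it was 0.05, 0.01 and 0. Over the 7 members in skin it was 0.02, -0.65 and 0.02, where over all genes it was 0.02, 0 and -0.01. Shallow depth moved with the seeded groups of stage 1, which held the smallest libraries, and the share of counts on ENSRNA features was 0.923% to 3.14% in seeded and 0.552% to 0.696% in seedless flesh of that stage. In skin that share was 0.622% to 1.66% against 0.48% to 0.619%. The part of these differences in the calls of stage 1 was not tested. With all libraries thinned to 608901 counts, GIN1 and VIT_11s0149g00050 were called lower in flesh and GIN1, GIN2 and SWEET10 in skin of stage 1, while GIN2 in flesh and the cell wall invertase and VIT_00s0181g00010 in skin had too few counts to be tested.

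**Figure D4:**
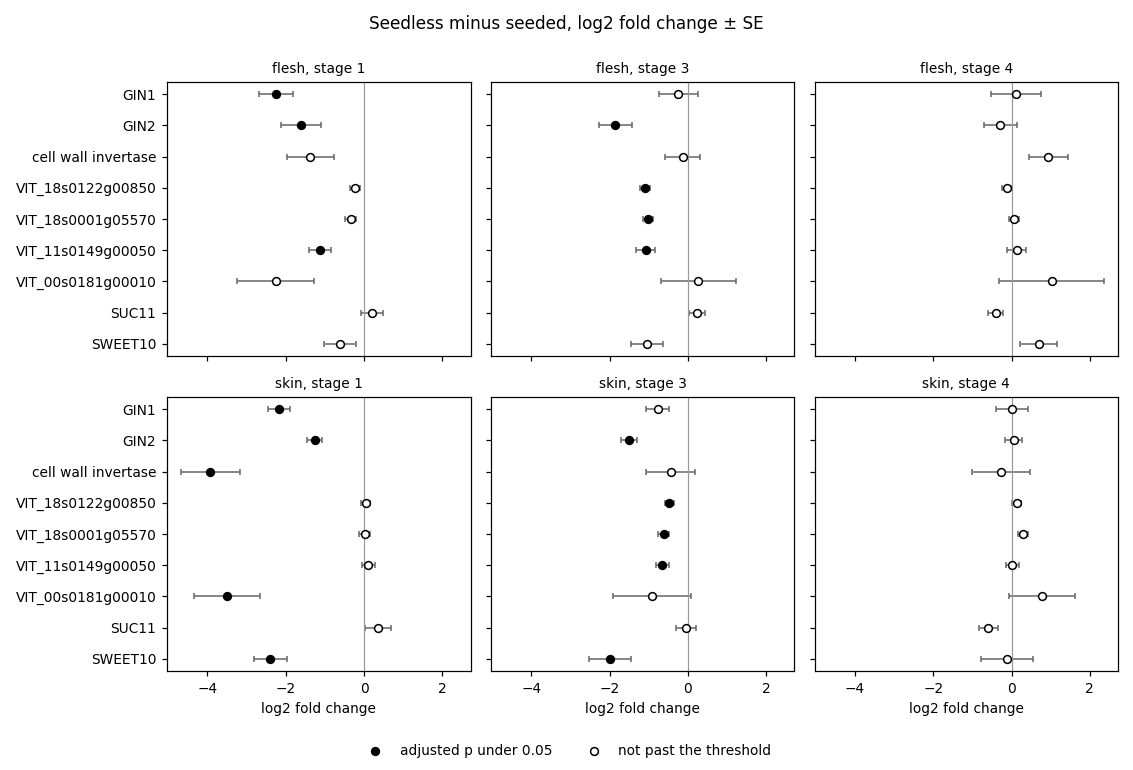
Seedless minus seeded log2 fold change of the 9 tested members at stages 1, 3 and 4, in flesh and in skin, with bars of ± SE from the edgeR fits; filled points have an adjusted p under 0.05. All filled points lie left of 0 and belong to stages 1 and 3. The cell wall invertase in skin and VIT_00s0181g00010 in both tissues passed the filter only through seeded libraries, and their points are descriptions.

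Whether the seedless minus seeded difference itself changed from stage 1 to stage 4 was tested directly. In flesh, 3 of 8 members were called higher, beside 5.8% of all genes: GIN1 at 2.37 ± 0.78 (edgeR adjusted p = 0.0495), the cell wall invertase at 2.31 ± 0.79 (edgeR adjusted p = 0.0485) and VIT_11s0149g00050 at 1.25 ± 0.38 (edgeR adjusted p = 0.024). All 3 stood near the threshold. The number called was 0 on leaving out replicate 1 of seeded flesh of stage 1 or replicate 2 of seedless flesh of stage 4, 1 without replicate 1 or 3 of seedless flesh of stage 1, replicate 3 of seeded flesh of stage 1, replicate 3 of seedless flesh of stage 4 or replicate 2 or 3 of seeded flesh of stage 4, and 0 at equal depth.

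In skin, 2 of 7 members were called higher, beside 7.24% of all genes: GIN1 at 2.19 ± 0.49 (edgeR adjusted p = 0.0084) and GIN2 at 1.31 ± 0.29 (edgeR adjusted p = 0.0016). SWEET10 was at 2.27 ± 0.79 (edgeR adjusted p = 0.068) and was called by DESeq2 (2.28, adjusted p = 0.025). Thus the difference in the level of GIN1 and GIN2 between seeded and seedless skin was larger at stage 1 than at stage 4 by this test. At equal depth the GIN2 call was lost, with an edgeR adjusted p of 0.18. The fitted changes of the cell wall invertase and VIT_00s0181g00010, given without a test, were 3.66 ± 1.1 and 4.28 ± 1.2.

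Ripening was followed over both kinds of berry, as the mean of the seeded and seedless changes. From stage 1 to stage 3 in flesh, 3 of 8 members fell, beside 8.55% of all genes called lower: GIN1 (-2.31 ± 0.33, edgeR adjusted p = 3.1e-05), SWEET10 (-1.61 ± 0.29, edgeR adjusted p = 0.0019) and VIT_11s0149g00050 (-0.53 ± 0.19, edgeR adjusted p = 0.043). The last was called no longer in 12 of 18 alternatives, 9 of which each left out 1 library. In skin between these stages, 4 of 7 fell, beside 11.2% of all genes: GIN1 (-2.26 ± 0.21, edgeR adjusted p = 3.3e-06), GIN2 (-0.92 ± 0.14, edgeR adjusted p = 3.6e-06), SWEET10 (-2.71 ± 0.33, edgeR adjusted p = 3.6e-05) and VIT_11s0149g00050 (-0.45 ± 0.12, edgeR adjusted p = 0.0048). The last was a mean over unlike courses, 61.9 to 61.4 CPM in seeded skin, where the libraries overlapped, and 69.6 to 39.1 CPM in seedless skin, where they stood apart. Its call was lost without seeded skin replicate 1 of stage 1 (0.071) and at equal depth (0.27).

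From stage 3 to stage 4 in flesh, 4 of 8 members fell and 1 rose, beside 20.6% of all genes called lower and 16.6% called higher. GIN1 fell by 1.29 ± 0.40 on the log2 scale (edgeR adjusted p = 0.014), a call lost at equal depth (0.15), SWEET10 by 2.02 ± 0.31 (edgeR adjusted p = 2.1e-04), VIT_18s0001g05570 by 1.19 ± 0.09 (edgeR adjusted p = 5.3e-13) and VIT_18s0122g00850 by 0.69 ± 0.09 (edgeR adjusted p = 1.9e-07). SUC11 rose by 0.38 ± 0.14 (edgeR adjusted p = 0.032), a call lost in 8 of 18 alternatives, with an edgeR adjusted p of 0.18 without seeded flesh replicate 1 of stage 4. The rise of SUC11 was a mean over unlike courses. Its level went from 25.4 to 41.5 CPM in seeded flesh, with the stages apart, and from 29.6 to 31.4 CPM in seedless flesh, with overlap. In this comparison VIT_18s0001g05570 fell in both kinds of flesh, from 319 to 97.2 CPM in seeded and from 157 to 102 CPM in seedless berries, with the stages apart in each. The fall of VIT_18s0122g00850 was a mean over unlike courses. It went from 908 to 407 CPM in seeded flesh, with the stages apart, and from 426 to 374 CPM in seedless flesh, with overlap.

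From stage 3 to stage 4 in skin, 4 of 7 fell and 1 rose, beside 18.7% of all genes called lower and 15.6% called higher. GIN1 fell by 1.96 ± 0.25 (edgeR adjusted p = 3.2e-05), GIN2 by 0.96 ± 0.15 (edgeR adjusted p = 2.3e-06), VIT_18s0001g05570 by 0.60 ± 0.09 (edgeR adjusted p = 7.4e-06) and VIT_18s0122g00850 by 0.51 ± 0.08 (edgeR adjusted p = 5.5e-06). SUC11 rose by 0.52 ± 0.18 (edgeR adjusted p = 0.021), a call lost in 5 of 18 alternatives. This rise too was a mean over unlike courses. SUC11 went from 13.9 to 24.3 CPM in seeded skin, with the stages apart, and from 13.5 to 16.1 CPM in seedless skin, with overlap. The falls of GIN2, VIT_18s0001g05570 and VIT_18s0122g00850 were means over unlike courses. In seeded skin GIN2 went from 44.2 to 12.6 CPM, VIT_18s0001g05570 from 309 to 149 CPM and VIT_18s0122g00850 from 524 to 300 CPM, with the libraries of the 2 stages apart. In seedless skin they went from 15.5 to 13.7 CPM, from 201 to 182 CPM and from 380 to 330 CPM, with overlap. SWEET10, at 15 and 3.71 CPM in seeded skin and at 3.73 and 3.34 CPM in seedless skin, was at -1.03 with an edgeR adjusted p of 0.081, and was called by DESeq2 (-1.06, adjusted p = 0.027).

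Skin and flesh were compared at each stage in a fit of all 36 libraries, which did not pair skin and flesh by replicate number. At stage 1, 3 of 9 members were higher in skin and 3 lower, beside 20.1% and 15.3% of the 14841 genes tested. GIN1 was 7.32-fold higher in skin (2.87 ± 0.27, edgeR adjusted p = 3.3e-09), GIN2 6.42-fold higher (2.68 ± 0.23, edgeR adjusted p = 3.8e-14) and VIT_11s0149g00050 3.07-fold higher (1.62 ± 0.15, edgeR adjusted p = 2.5e-13). VIT_18s0122g00850 (-0.43 ± 0.09, edgeR adjusted p = 3.2e-04), SUC11 (-1.14 ± 0.22, edgeR adjusted p = 2.9e-05) and SWEET10 (-2.55 ± 0.29, edgeR adjusted p = 1e-07) were lower in skin. Vacuolar invertases and SWEET10 thus lay on opposite sides of this comparison.

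At stage 3 the same 6 members were called on the same sides as at stage 1, and the cell wall invertase was also lower in skin (-1.0 ± 0.37, edgeR adjusted p = 0.027). This made 3 of 9 higher and 4 lower, beside 22.7% and 17.3% of all genes. SWEET10 was 12.6-fold lower in skin there (-3.65 ± 0.35, edgeR adjusted p = 2.1e-09). At stage 4 all 9 tested members were called, 5 higher and 4 lower, beside 23.3% and 18% of all genes. VIT_18s0001g05570 joined the higher side (0.73 ± 0.10, edgeR adjusted p = 2.8e-08), as did VIT_00s0181g00010 (1.81 ± 0.75, edgeR adjusted p = 0.0476), whose call was lost in 10 of 17 alternatives. At stage 4 VIT_00s0181g00010 had 2 reads in seeded and 6 in seedless flesh, and 8 in seeded and 18 in seedless skin. In the joint fit it passed the filter only through seeded libraries of stage 1. The 2 calls of the cell wall invertase rested on few reads; that of stage 3 was lost without seedless flesh replicate 3, seedless skin replicate 1, seeded flesh replicate 1 or seeded skin replicate 2 of that stage, with edgeR adjusted p between 0.061 and 0.13. At stage 4 it was lost without seedless skin replicate 2 (0.053) or seeded flesh replicate 2 (0.05), and the VIT_18s0122g00850 call (-0.30 ± 0.09, edgeR adjusted p = 0.0075) without seeded flesh replicate 1 (0.052). Leaving out 1 library gave 7 to 9 members called at stage 4.

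**Figure D5:**
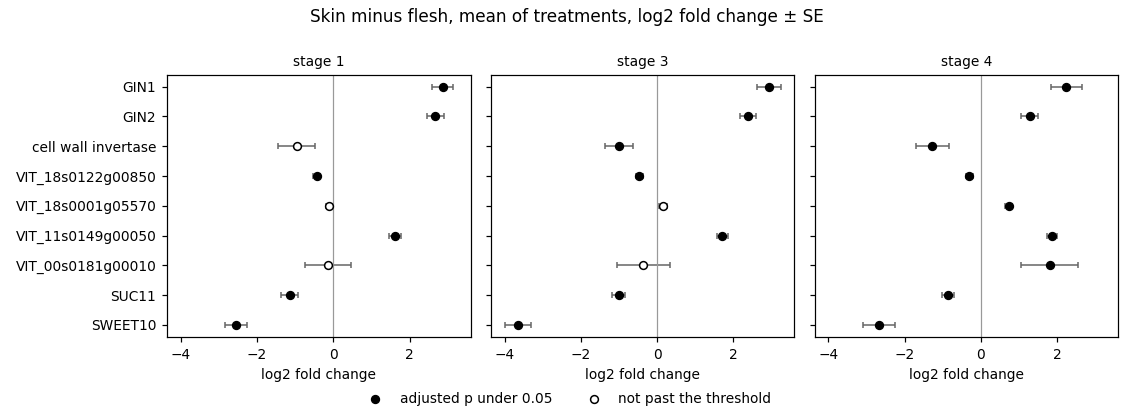
Skin minus flesh log2 fold change of the 9 tested members at stages 1, 3 and 4, as the mean of seeded and seedless berries, with bars of ± SE from the edgeR fit of all 36 libraries; filled points have an adjusted p under 0.05. GIN1, GIN2 and VIT_11s0149g00050 lie right of 0 at every stage, and SWEET10, SUC11 and VIT_18s0122g00850 lie left of it.

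The seedless minus seeded difference was also compared between skin and flesh, in the same fit without pairing by replicate number. At stage 1, 1 of 9 members was called higher, beside 1.5% of all genes: VIT_11s0149g00050, at 1.26 ± 0.32 (edgeR adjusted p = 0.018), which was called lower in seedless flesh and not called in seedless skin. That call was lost without seeded flesh replicate 1 (0.11) or seeded skin replicate 3 (0.054) of stage 1. SWEET10 was at -1.76 ± 0.58 (edgeR adjusted p = 0.12). With no filter on low counts it was called (-1.78, edgeR adjusted p = 6.7e-12). The estimate hardly moved there, so the small p reflects that fit's estimate of the spread and not a larger difference. SWEET10 was also called at equal depth (-1.86, edgeR adjusted p = 0.042) and was not called by DESeq2. At stage 3, edgeR called 0 of 9, beside 0.445% of all genes, with 2 members at an unadjusted p under 0.05 and 0 called by DESeq2. VIT_18s0122g00850 was there at 0.63 ± 0.18 (edgeR adjusted p = 0.11), and was called with no filter on low counts (0.017) and without seeded flesh replicate 2 of stage 3 (0.74, 0.041); VIT_18s0001g05570 was at 0.40 ± 0.19 (edgeR adjusted p = 0.47). At stage 4, edgeR called 0 of 9, beside 0.128% of all genes, with 0 members at an unadjusted p under 0.05 and 0 by DESeq2.

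Ordered by mean level over the 12 groups, GIN1 was highest in seeded skin of stage 1, and its libraries there stood above those of the next group, seedless skin of stage 1. The next 4 groups down, from seedless skin of stage 1 at 104 CPM to seedless skin of stage 3 at 35.2 CPM, overlapped each with its neighbour. For GIN2 the 3 highest groups, seeded skin of stage 1, seeded skin of stage 3 and seedless skin of stage 1, each stood apart from the next. VIT_18s0122g00850 in seeded flesh of stage 3 and SUC11 in seeded flesh of stage 4 each stood apart from the next group, and most lower neighbours overlapped. For VIT_18s0001g05570 seeded flesh and seeded skin of stage 3, at 319 and 309 CPM, overlapped at the top and stood apart from the third.

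Across the 12 group means of log2 CPM, GIN1 and GIN2 followed each other with a Pearson r of 0.86, and GIN2 and VIT_11s0149g00050 with 0.91. SUC11 ran opposite to GIN1 with an r of -0.92. These points share tissue and stage, so the values describe the 12 groups only. Among 9300 genes outside the set with a mean of at least 10 CPM, the 2 most like GIN1 were VIT_12s0035g00970 (r = 0.981) and VIT_01s0011g04270 (0.978), and those most like GIN2 were VIT_08s0007g02490 (0.978) and VIT_05s0020g04510 (0.96). The closest to SWEET10 were VIT_17s0000g00720 (0.986) and VIT_13s0019g04680 (0.973), and to SUC11 VIT_01s0011g01660 (0.991) and VIT_16s0100g00510 (0.989). The hexose transporters were most like VIT_17s0000g02260 (0.935) for VIT_18s0001g05570, VIT_06s0004g01390 (0.98) for VIT_11s0149g00050 and VIT_05s0029g00180 (0.943) for VIT_18s0122g00850.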

How the data were processed

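The authors deposited raw counts per gene, whole and not normalized, for 36 libraries. The submitters' processing notes name fastp 0.20.0, HISAT2 2.2.1 and featureCounts, without their roles. Genome build, annotation, strand setting and handling of multiply matching reads were not given in the sources used here, so reads of near-identical genes may be split between copies.

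Counts were fitted with edgeR 4.0.16 in R 4.3.3 (quasi-likelihood F-test, TMM scaling, filterByExpr with a minimum count of 10, Benjamini-Hochberg adjustment over all genes tested, threshold 0.05). Flesh and skin were fitted apart, 18 libraries each, and tissue contrasts over all 36. The standard error is the log2 fold change over the square root of F, and 95% intervals span 1.96 SE to either side. That is the multiplier of a normal distribution. The F-test has finite degrees of freedom, so these intervals are somewhat narrower than the test implies. Samples were grouped by labelled berry type, tissue and stage. Alternatives were DESeq2 1.42.0, RLE size factors, no filter, thinning to equal depth, a replicate block, wider or narrower sets of libraries and leaving out each library. The members and lists were chosen with earlier results of these data known, and the tests of changes from stage 1 to 3 and 3 to 4 were added after values were seen. All members were named; the 2 most alike genes were named for members averaging at least 10 CPM. Sugar-pathway and cell-type marker lists defined by product text could not be matched, so they gave no result and the labelled tissues were not checked by markers. Members that passed the filter in a tissue only through seeded libraries of stage 1, or of stages 1 and 3, were left out of that tissue's counts and medians, a choice made after values were seen. Scripts were tested on simulated data. In 1 table, 0 per-sample columns lay outside the samples. All replicate pairs differed by more than counting noise, with a variance ratio of at least 3.44.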

Additional observations from a re-analysis of the deposited data

Results flagged for a closer look

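Apart from the descriptions named at the end, each value here is a seedless minus seeded difference that itself differed between stages or tissues. The direct edgeR test gave an adjusted p under 0.05 for each, and values are on the log2 scale with SE. The tests from stage 1 to 3 and from stage 3 to 4 were added after values were seen. From stage 1 to stage 4 in flesh, it moved by 2.37 ± 0.78 for GIN1, 2.31 ± 0.79 for the cell wall invertase and 1.25 ± 0.38 for VIT_11s0149g00050. In skin it moved by 2.19 ± 0.49 for GIN1, 1.31 ± 0.29 for GIN2, 3.66 ± 1.1 for the cell wall invertase and 4.28 ± 1.2 for VIT_00s0181g00010. From stage 1 to stage 3 in flesh it moved by -0.68 ± 0.19 for VIT_18s0001g05570 and -0.86 ± 0.18 for VIT_18s0122g00850. In skin it moved by -0.64 ± 0.19 and -0.51 ± 0.16 for the same transporters, by -0.77 ± 0.24 for VIT_11s0149g00050 and by 3.49 ± 1.0 for the cell wall invertase. From stage 3 to stage 4 in flesh it moved by 1.08 ± 0.19 for VIT_18s0001g05570, 0.97 ± 0.18 for VIT_18s0122g00850 and 1.21 ± 0.35 for VIT_11s0149g00050. In skin it moved by 0.91 ± 0.19 for VIT_18s0001g05570, 0.60 ± 0.16 for VIT_18s0122g00850 and 1.56 ± 0.30 for GIN2. Between tissues, it was 1.26 ± 0.32 higher in skin than in flesh of stage 1 for VIT_11s0149g00050. In skin the values of the cell wall invertase and VIT_00s0181g00010 are descriptions, since these genes passed the filter on low counts through seeded libraries alone. Calls lost under no alternative were GIN1 in skin from stage 1 to 4, VIT_18s0122g00850 in flesh from stage 1 to 3, and VIT_18s0001g05570 and VIT_18s0122g00850 in flesh from stage 3 to 4. Those lost most often were VIT_18s0122g00850 in skin from stage 1 to 3 (14 of 18 alternatives) and, in flesh from stage 1 to 4, the cell wall invertase (12 of 17) and GIN1 (11 of 18). The causes were not tested.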

How the results depend on the processing

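The 76 calls of members, those described without a test included, were each recomputed under the alternatives, 1269 values in all. Of these, 1112 kept direction and call, 157 lost the call and 0 changed sign. Among the calls, 45 were lost under no alternative that gave a value. Those 45 include the calls of the cell wall invertase and VIT_00s0181g00010 in skin of stage 1. Because these genes passed the filter through the seeded libraries where they were high, their kept calls do not measure stability. DESeq2 lost 1 of 75, where an adjusted p was given, RLE size factors 2 of 76, no filter 3 of 76, all 36 libraries in a joint fit 4 of 53, only the 6 libraries compared 0 of 16, and leaving out 1 library 126 of 810. Thinning to 608901 counts lost 17 of 65, and there low-count members, among them GIN2 in flesh and the cell wall invertase in skin of stage 1, failed the filter and gave no value.

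At equal depth the members called numbered 2 rather than 4 in flesh of stage 3 and 3 rather than 5 for stage 3 to 4 in flesh. In skin of stage 1 the 3 of 7 members called, GIN1, GIN2 and SWEET10, all stayed called. The skin counts at equal depth leave out the cell wall invertase and VIT_00s0181g00010, which were described without a test. For the change of the seedless minus seeded difference, the members called at equal depth numbered 0 rather than 3 in flesh from stage 1 to 4. In skin they numbered 1 rather than 2 (stage 1 to 4), 0 rather than 3 (stage 1 to 3) and 1 rather than 3 (stage 3 to 4). In the joint fit the members called for this change numbered 1 for stage 1 to 4 in flesh. They numbered 2 for stage 1 to 3 in skin, with the cell wall invertase counted. Without the filter, 2 rather than 1 members differed between tissues at stage 1 and 1 rather than 0 at stage 3. That these fits held fewer reads, more libraries or more genes is by construction; the cause was not tested further.

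Leaving out 1 library at a time gave 1 to 3 members in flesh of stage 1, 0 to 1 in flesh of stage 4 and 3 to 5 in skin of stage 3. For the changes it gave 0 to 4 (stage 1 to 4, flesh), 2 to 5 (stage 1 to 4, skin), 1 to 3 (stage 1 to 3, flesh) and 0 to 3 (stage 1 to 3, skin). Between tissues it gave 0 to 1 at stage 1 and 0 to 1 at stage 3. The ranges for the changes in skin count the cell wall invertase and VIT_00s0181g00010 wherever their adjusted p was under 0.05.

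With replicate number as a replicate block, 3 of 76 calls were lost: VIT_11s0149g00050 from stage 1 to 3 in flesh (-0.52, edgeR adjusted p = 0.053), the change of the seedless minus seeded difference for the cell wall invertase from stage 1 to 4 in flesh (2.28, edgeR adjusted p = 0.061) and that for VIT_18s0122g00850 from stage 1 to 3 in skin (-0.50, edgeR adjusted p = 0.052). All calls that it added were in skin. As means of the seeded and seedless changes, it added SWEET10 from stage 3 to 4 (-1.03, edgeR adjusted p = 0.038) and VIT_18s0001g05570 from stage 1 to 3 (0.26, 0.049). For the change of the seedless minus seeded difference, it added SWEET10 from stage 1 to 4 (2.19, 0.036) and GIN1 from stage 1 to 3 (1.40, 0.024). A block of treatment, stage and number lost 1 of 22 tissue calls, that of VIT_00s0181g00010 at stage 4, and added VIT_18s0001g05570 at stage 3 (0.16, edgeR adjusted p = 0.037). Same-numbered skin and flesh libraries deviated together with r from 0.07 to 0.28, over 0.1 in 11 of 18 pairs. Libraries of different numbers had a median r of -0.05 and reached at most 0.06. Of the libraries, 36 of 36 correlated best with their own number in the other tissue. Same-numbered skin and flesh thus shared part of their deviations. The skin minus flesh results further above did not pair them, and only the block of treatment, stage and number did. That block was not fitted for the seedless minus seeded difference compared between tissues, so those results were not tested with pairing.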
